A study of Mus musculus with 13 samples.

Results

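The kidneys of mice grown from vitrified oocytes were compared with the kidneys of mice grown from fresh oocytes. Libraries were chosen by the tissue and treatment labels, which gave 7 of the 13 libraries of the series, 4 from vitrified and 3 from fresh oocytes. All animals were CD-1 (ICR) mice, an outbred stock, taken at 8 weeks of age. Per the labels' protocols, eggs of the vitrified group were frozen on a Cryotop carrier and thawed before fertilisation in vitro, whereas the fresh group went through the same steps without freezing, and cleaved embryos of both groups grew to term in pseudopregnant females. The fresh group is therefore itself an in vitro fertilisation group, and no naturally conceived animals were compared. RNA came from saline-washed pieces of kidney that were frozen and ground, and the labels say neither which zone of the kidney a piece held nor the sex, litter or batch of the animal. Libraries are labelled as biological replicates. Since no litter or parent is named, shared litters would go unseen. A p-value here covers only the spread among the libraries, part of which may be technical.

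Vitrification turns the egg cell into a glass-like solid at a cooling rate at which ice does not form, and it exposes the cell to concentrated cryoprotectants and to osmotic shrinkage. The kidney filters plasma at the glomerulus, and the tubule behind it reclaims solutes segment by segment. The proximal tubule takes back most of the filtrate and its proteins, the loop of Henle builds the salt gradient of the medulla, and the collecting duct sets the final water, potassium and acid content of the urine. Each segment has its own transporters, so a piece of whole kidney reports both the makeup of the piece and the state of its cells. In such bulk RNA, fewer cells of a type and less RNA per cell cannot be told apart.

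Estimated counts added up to between 16073251 and 19964914 per kidney library over 22298 genes, and 4335 of these genes had no count in any kidney. Levels are CPM, the estimated count of a gene scaled to its library's total, and values are listed as fresh 1, 2 and 3 and then vitrified 1, 2, 3 and 4. Libraries fresh 3 and vitrified 4 stood apart from the other 5. Their summed CPM of the Y-linked genes Ddx3y, Uty, Kdm5d and Eif2s3y was 1.25 and 0.17, against 137 to 177 in the other kidneys. Kap, the androgen-dependent kidney protein of the proximal tubule, was at 9710 and 4850 CPM in these libraries, against 26300 to 31500 CPM. Slc7a12, a transporter known to be more abundant in female mouse kidney, was at 288 and 66.5 CPM, against 0.491 to 2.80 CPM. Because 1 such library lay in each group, fold changes of the genes ranked by p and the medians of the main lists are also given without this pair. Vitrified 3 stood apart in heat shock and immediate early transcripts and vitrified 2 in ribosomal and matrix transcripts, as described with those groups. Of all tested genes 34% were highest in vitrified 4, 18.5% in fresh 3, 16.1% in vitrified 2 and 8.08% in vitrified 3. The lowest library was vitrified 2 for 28.8% and fresh 1 for 15.3%. Counts of list members highest or lowest in a library are to be read against these shares. Across the 5000 most abundant genes the root mean square log2 distance between a fresh and a vitrified kidney had a median of 0.592. Within the fresh and vitrified groups the medians were 0.741 and 0.678. These medians include fresh 3 and vitrified 4, which lay 0.74 to 0.836 from each of the other 5. Without the pair, fresh 1 and fresh 2 lay 0.291 apart, the vitrified libraries 0.41 to 0.56, and libraries of different origin 0.293 to 0.612.

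No gene passed a Benjamini-Hochberg adjusted p under 0.05 in edgeR's quasi-likelihood test, 0 of 14018 genes tested (0%). The smallest adjusted p was 0.0535, shared by Bglap3 and Gm9008. At an unadjusted p under 0.05 there were 288 genes (2.05%), of which 137 were higher in vitrified kidneys (0.977%) and 151 lower (1.08%). DESeq2 called 11 genes on the same counts, limma-voom called 3, and limma on log2(FPKM + 1) called 0. In 403 genes (2.87%) the fresh and vitrified libraries did not overlap, with the vitrified libraries higher in 166 of them (1.18%) and lower in 237 (1.69%). The median log2 fold change over all tested genes was 0.02, the median size of a change was 0.18 and the median standard error (SE) of a gene was 0.26. Each log2 fold change is the vitrified over the fresh level as fitted by edgeR. The genes named below carry their values and errors, and none of them passed the test.

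**Figure D1:**
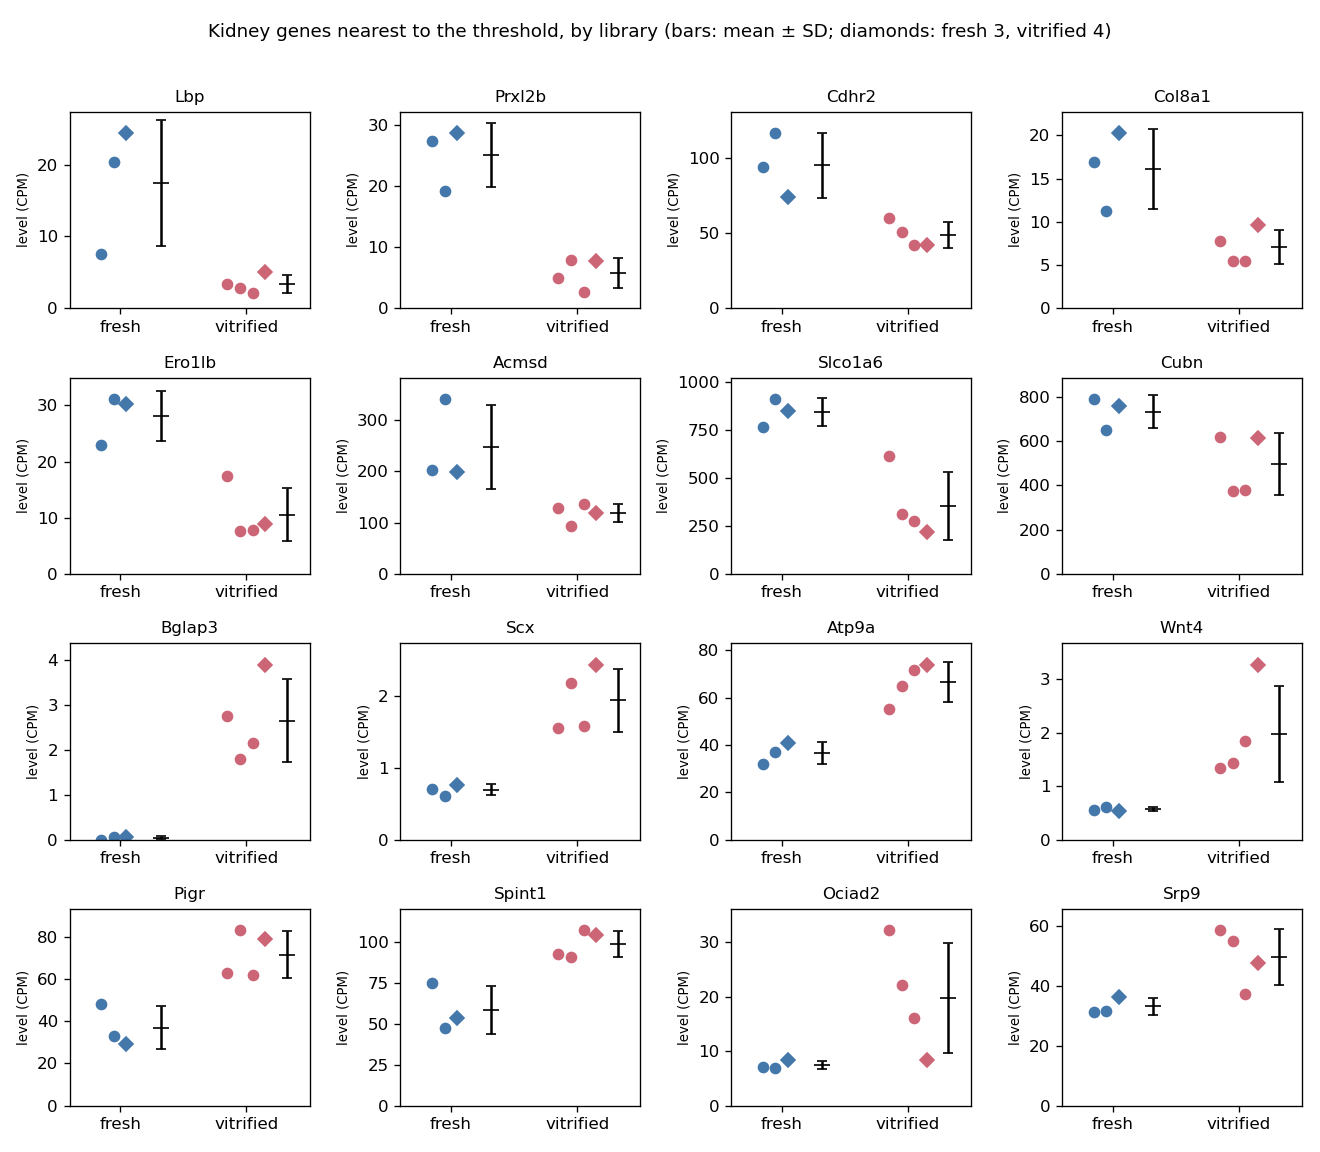
Levels of 16 genes in the 7 kidney libraries, in CPM on a linear axis from 0, with 1 panel per gene. Points are libraries, bars are the mean ± SD of 3 fresh and 4 vitrified kidneys, and diamonds mark fresh 3 and vitrified 4; Lbp, Prxl2b, Cdhr2 and the other genes of the first 8 panels lie lower in all vitrified libraries, and Bglap3, Atp9a and the other genes of the last 8 panels lie higher.

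Among genes with less transcript in vitrified kidneys, Lbp, which encodes the plasma protein that hands bacterial lipopolysaccharide to CD14, had the smallest p. Lbp was at 7.57, 20.4 and 24.5 CPM in the fresh kidneys and at 3.36, 2.86, 2.16 and 4.98 CPM in the vitrified kidneys. All vitrified libraries lay below all fresh ones, and fresh 1 was well below the other fresh libraries. The means were 17.5 ± 8.84 (SD, n = 3) and 3.34 ± 1.20 CPM (SD, n = 4), a log2 fold change of -2.37 ± 0.37 (SE, adjusted p = 0.427). The liver also makes Lbp, and scaling the albumin transcript of each kidney by the highest Lbp to albumin ratio of the livers gave at most 1.09 CPM. Of 11 tested hepatocyte markers 10 lay below 0, with a median log2 fold change of -1.25, and of -0.42 without fresh 3 and vitrified 4, and their summed level was 481, 432 and 642 CPM in fresh and 222, 564, 556 and 39.3 CPM in vitrified kidneys. Albumin did not stand for all of them, since Ttr, transthyretin, was at 529 CPM in vitrified 3 where albumin was at 1.28 CPM. The part of liver transcript in the Lbp values was otherwise not tested. The other genes of lipopolysaccharide recognition did not share the difference. Of 14 list members tested, 8 lay above and 6 below 0, the median log2 fold change was 0.06, and Lbp alone had an unadjusted p under 0.05. Cd14, the co-receptor, was at 4.84, 7.18 and 7.30 CPM in fresh and at 4.16, 5.79, 5.19 and 10.6 CPM in vitrified kidneys, and Tlr4, the receptor, at 4.49, 3.68 and 4.96 against 4.71, 2.36, 4.88 and 8.10 CPM, with overlap in both.

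Prxl2b encodes a thioredoxin-like protein known for prostamide and prostaglandin F synthesis. It was at 27.4, 19.1 and 28.7 CPM in fresh kidneys and at 4.96, 7.78, 2.57 and 7.70 CPM in vitrified kidneys. No vitrified library reached the lowest fresh one, and the means were 25.1 ± 5.23 (SD, n = 3) and 5.75 ± 2.5 CPM (SD, n = 4), a log2 fold change of -2.12 ± 0.34 (SE, adjusted p = 0.427). The gene overlaps Mmel1, which was at 0.151 CPM or less in every kidney. Among 18 tested genes of prostaglandin synthesis and its receptors, 12 lay above 0 and 6 below, with a median of 0.14. In the list of cholesterol synthesis and uptake 9 of 23 tested members lay above 0 and 14 below, with a median of -0.03. Sqle, a rate-limiting enzyme of that pathway, was at 34.7, 40.8 and 24.7 CPM in fresh and at 35.0, 23.6, 38.1 and 34.5 CPM in vitrified kidneys, with overlap.

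Ero1lb encodes an endoplasmic reticulum oxidase that makes disulfide bonds in new proteins. Its level was 23, 31.2 and 30.2 CPM in fresh and 17.5, 7.71, 7.86 and 8.83 CPM in vitrified kidneys, with vitrified 1 nearest to the fresh group and no overlap. The log2 fold change was -1.41 ± 0.30 (SE, adjusted p = 0.999). Of 20 tested genes of oxidative folding and endoplasmic reticulum stress, 10 lay on each side of 0. Col8a1, a short-chain collagen of vessel walls, was at 16.9, 11.2 and 20.3 CPM in fresh and at 7.76, 5.41, 5.49 and 9.57 CPM in vitrified kidneys, again without overlap, with a log2 fold change of -1.19 ± 0.23 (SE, adjusted p = 0.999). Acmsd, the enzyme that steers tryptophan breakdown away from NAD synthesis and is abundant in the proximal tubule, was at 203, 342 and 198 against 129, 94.1, 136 and 119 CPM. The fresh mean of 248 ± 81.8 (SD, n = 3) lay above every vitrified library, and the vitrified mean was 119 ± 18.2 CPM (SD, n = 4), a log2 fold change of -1.05 ± 0.27. Cdhr2, a cadherin that links brush border microvilli, was at 94.3, 117 and 74.1 CPM in fresh and at 60.0, 50.9, 42.3 and 41.9 CPM in vitrified kidneys, without overlap, with a log2 fold change of -0.96 ± 0.25.

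Further genes had lower values in the vitrified group. Reln, the secreted glycoprotein reelin, was at 12.4, 10.7 and 19.9 CPM in fresh and at 8.01, 6.35, 6.67 and 8.89 CPM in vitrified kidneys (log2 fold change -0.91 ± 0.21). Ect2, a guanine nucleotide exchange factor of cytokinesis, was at 10.1, 11.5 and 22.6 against 5.51, 3.24, 6.83 and 7.08 CPM (-1.34 ± 0.32). Intu, a planar polarity effector needed for cilia, was at 22, 32.3 and 37.3 against 21.0, 14.2, 14.5 and 18.9 CPM (-0.81 ± 0.19). In each of these genes the highest vitrified library lay below the lowest fresh one, in Intu by a narrow margin. Trim80 was near 1 CPM, at 0.706, 1.47 and 1.42 against 0.15, 0.373, 0.154 and 0.17 CPM (-2.44 ± 0.54). Pfn3, a profilin of the testis, was at 0.714, 2.60 and 1.54 CPM in fresh kidneys and at 0, 0, 0 and 0.00793 CPM in vitrified kidneys (adjusted p = 0.899). Pfn3 overlaps the phosphate transporter gene Slc34a1 on the other strand, which stood at 3210 to 4690 CPM, and strand use in the counting is not given in the sources used here, so reads of these genes cannot be told apart.

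Bglap3 and Gm9008 had the smallest p of all genes and were close to 0 in fresh kidneys. Bglap3, a member of the osteocalcin cluster also known as osteocalcin-related protein and reported in mouse kidney, was at 0, 0.0614 and 0.0545 CPM in fresh and at 2.75, 1.80, 2.16 and 3.91 CPM in vitrified kidneys. Every vitrified library held the transcript at a low level, and the fresh libraries held next to none. The log2 fold change was 5.92 ± 0.64 (SE, adjusted p = 0.0535), a size that depends on the prior count because the fresh level is near 0. Its neighbours in the cluster were almost silent, Bglap at 0.0614 CPM in fresh 2 and 0 elsewhere and Bglap2 at 0 in all 7 kidneys. The other vitamin K-dependent Gla proteins did not follow, with 5 of 15 tested members above 0, 10 below and a median of -0.03. Gm9008, a predicted gene, was at 0.0525, 0 and 0 CPM in fresh and at 2.97, 2.66, 3.00 and 2.23 CPM in vitrified kidneys (adjusted p = 0.0535). Of its sequence words 60.1% occur in other genes, most often in Rnf26, which was at 20.1, 24.1 and 20 against 19.6, 21.5, 15.7 and 18.1 CPM, so the split of reads between these genes is uncertain.

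Atp9a, a P4-type ATPase of endosomes that acts in membrane recycling, was higher in vitrified kidneys with little spread within the groups. It was at 31.9, 37.2 and 41.0 CPM in fresh and at 55.2, 65, 71.8 and 74.0 CPM in vitrified kidneys, with a clear gap between the groups. The means were 36.7 ± 4.56 (SD, n = 3) and 66.5 ± 8.43 CPM (SD, n = 4), a log2 fold change of 0.88 ± 0.17 (SE, adjusted p = 0.999). Of 17 tested flippases and their partners 7 lay above 0 and 10 below, with a median of -0.04, and Atp9b, the closest relative of Atp9a, was at 39.8, 42.2 and 33.0 against 38.6, 30.9, 40.8 and 39.0 CPM.

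Wnt4, a ligand that turns kidney mesenchyme into epithelium and stays on in the medulla of the adult, was at 0.555, 0.614 and 0.545 CPM in fresh and at 1.35, 1.43, 1.85 and 3.28 CPM in vitrified kidneys. The level was low in every library and the groups did not overlap, with a log2 fold change of 1.76 ± 0.42 (SE, adjusted p = 0.999). Scx, a transcription factor of tendon and other matrix-forming cells, was at 0.706, 0.614 and 0.763 against 1.55, 2.18, 1.59 and 2.44 CPM (1.48 ± 0.36). Pigr, the receptor that carries immunoglobulin A across epithelia, was at 48.4, 33.0 and 29.0 against 62.7, 83.1, 61.7 and 79.1 CPM, without overlap, at means of 36.8 ± 10.2 (SD, n = 3) and 71.6 ± 11 CPM (SD, n = 4) and a log2 fold change of 0.96 ± 0.25. Scaling by albumin in the same way gave at most 7.76 CPM of Pigr. Spint1, a membrane inhibitor of serine proteases in epithelia, was at 74.7, 47.1 and 53.2 against 92.5, 90.7, 107 and 104 CPM (0.76 ± 0.22), and the groups did not overlap. Ociad2, a mitochondrial membrane protein, was at 7.01, 6.99 and 8.28 against 32.2, 22.1, 16.0 and 8.38 CPM (1.45 ± 0.43), with vitrified 4 next to the fresh group. Srp9, a subunit of the signal recognition particle, was at 31.4, 31.7 and 36.4 against 58.5, 54.9, 37.4 and 47.7 CPM (0.60 ± 0.19), with vitrified 3 just above the highest fresh library. Commd1b, of whose sequence words 98.2% occur in other genes and which is uncertain for that reason, overlapped between the groups at 16.1, 12.2 and 25.3 against 21.1, 50.4, 33.0 and 39.8 CPM (1.06 ± 0.32).

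All of these genes except Commd1b were without overlap, so leaving out libraries could hardly turn their direction. The fold changes without fresh 3 and vitrified 4 therefore show only how far the size moved. On the lower side the log2 fold change without this pair was -2.32 for Lbp, -2.19 for Prxl2b, -1.31 for Ero1lb, -1.18 for Col8a1, -1.18 for Acmsd and -1.05 for Cdhr2, and -0.72 for both Reln and Intu, -1.05 for Ect2 and -2.25 for Trim80. On the higher side it was 6.01 for Bglap3, 6.39 for Gm9008, 0.90 for Atp9a, 1.41 for Wnt4, 1.42 for Scx, 0.77 for Pigr, 0.67 for Spint1, 1.73 for Ociad2, 0.67 for Srp9 and 1.32 for Commd1b. Lbp, Bglap3 and Atp9a thus moved little, and Reln and Pigr were nearer to 0.

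Outside the rule, and chosen after their values were seen, 3 genes were called by single alternatives. Tpm3-rs7, a copy of the tropomyosin gene Tpm3, was at 26.2, 0.302 and 0.461 CPM in fresh and at 64.9, 73.1, 82.6 and 40.5 CPM in vitrified kidneys, with Tpm3 itself the other way round at 62.9, 122 and 130 against 23.9, 17.1, 20.8 and 88.5 CPM. The sum of copy and parent gene was 114 ± 21.9 (SD, n = 3) against 103 ± 18.7 CPM (SD, n = 4), within the spread. AK157302 was at 0.0575, 13 and 20.6 against 0, 0.146, 0 and 0.129 CPM, and Ifi44l, an interferon-induced gene, at 0.0504, 2.33 and 6.26 against 0, 0.0622, 0.154 and 0 CPM. In all 3 genes fresh 1 stood apart from the other fresh kidneys in the direction of the vitrified group. The liver library numbered fresh 1 did the same, with Tpm3-rs7 at 11.2, 0.765 and 0.506 CPM in the fresh livers.

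To describe the tissue by cell type and function, 66 lists with 988 genes were used, of which 925 were tested. No list gene passed the test, and 40 of the 925 had an unadjusted p under 0.05, against 2.05% of all genes. The lists were chosen with earlier results of these data known and hold ranked genes such as Lbp and Prxl2b. The share among list genes can therefore not be read against that of all genes. List medians lay above 0 in 33 lists and below 0 in 33, and counts of members above 0 are set against 53.7% of all tested genes above 0 and 46.3% below. Some lists near 0 turned without fresh 3 and vitrified 4, to a median of -0.04 for lipopolysaccharide recognition, 0.07 for Gla proteins, -0.09 for the Wnt list, 0.05 for TGF beta and BMP genes and 0.02 for imprinted genes.

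**Figure D2:**
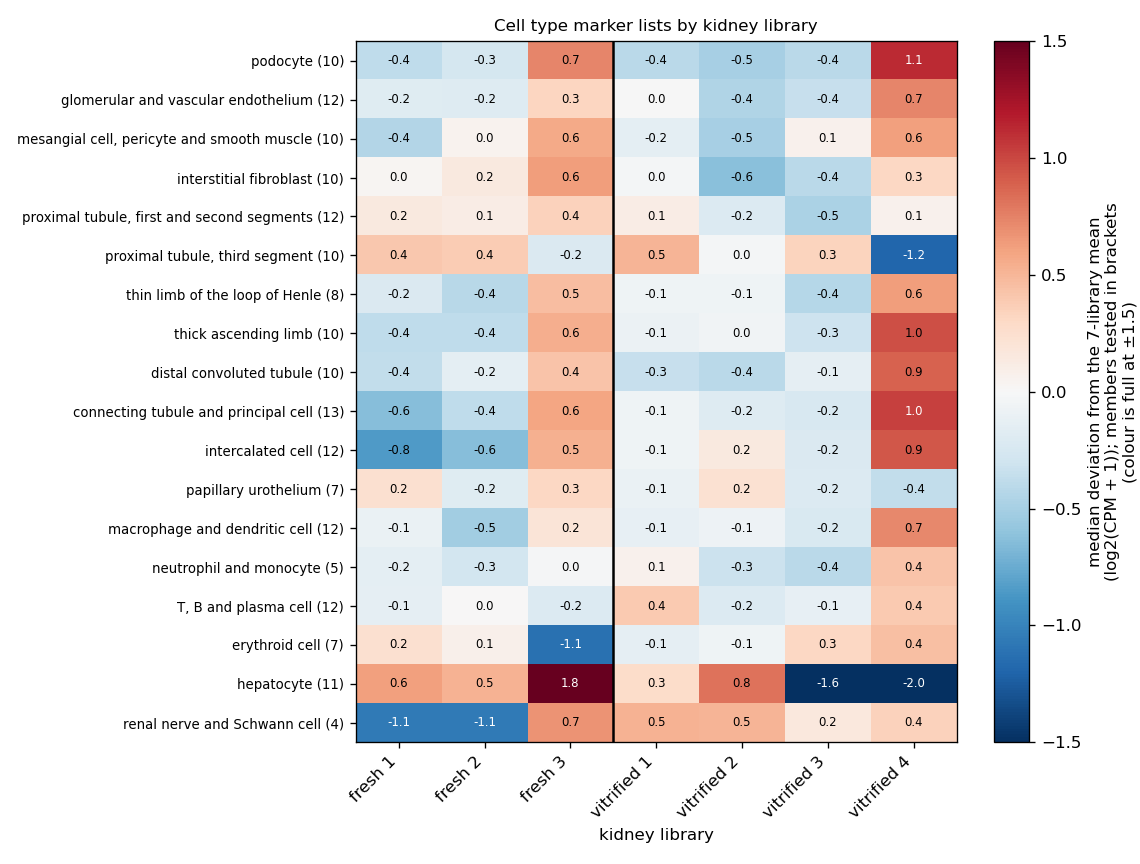
Marker levels of 18 cell types in the 7 kidney libraries, each square giving the median deviation of log2(CPM + 1) from the mean over the 7 libraries for the markers in that list. Fresh 3 and vitrified 4 are high in most lists of the distal nephron and glomerulus and low in the third segment of the proximal tubule, and the intercalated cell row is lowest in fresh 1.

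Along the proximal tubule the markers of the reabsorbing segments leaned lower. In the list of the first and second segments 3 of 12 tested genes lay above 0 and 9 below, with a median log2 fold change of -0.19, and of -0.34 without fresh 3 and vitrified 4. The summed level of the list was 13600, 13800 and 12300 CPM in fresh and 13200, 10200, 10500 and 11800 CPM in vitrified kidneys, so the groups overlapped. The endocytic receptors of this segment were at the front of that difference. Cubn, which encodes cubilin, the receptor that reclaims filtered albumin and vitamin B12 complexes, was at 793, 649 and 761 CPM in fresh and at 620, 375, 380 and 616 CPM in vitrified kidneys. All vitrified libraries lay below all fresh ones, at means of 734 ± 75.3 (SD, n = 3) and 498 ± 139 CPM (SD, n = 4) and a log2 fold change of -0.57 ± 0.23 (SE, adjusted p = 0.999). Lrp2, which encodes its partner megalin, was at 3050, 2860 and 3470 against 2690, 1730, 2160 and 2350 CPM, also without overlap. Among the 12 genes of proximal tubule endocytosis 2 lay above 0 and 10 below, with a median of -0.17, and of -0.27 without that pair. Cubn and Lrp2 were the 2 without overlap between the groups, against 1.69% of all genes on the lower side. Amn, the membrane anchor of cubilin, was at 58.8, 77.4 and 86.9 against 73.3, 92.7, 50.4 and 64.8 CPM, and Dab2, the adaptor of megalin, at 632, 712 and 560 against 623, 549, 486 and 622 CPM, with overlap in both.

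Among transporters of the proximal tubule, Slco1a6 had a clear gap between the groups. Slco1a6, an organic anion transporter, was at 765, 913 and 851 CPM in fresh and at 612, 312, 273 and 219 CPM in vitrified kidneys. Its groups did not overlap, at means of 843 ± 74.1 (SD, n = 3) and 354 ± 176 CPM (SD, n = 4), a log2 fold change of -1.23 ± 0.36 (SE, adjusted p = 0.999). Vitrified 1 lay nearest to the fresh kidneys. Among the 17 tested genes of organic anion and cation transport 7 lay above 0 and 10 below, with a median of -0.03. Slc22a13, an organic anion exchanger, was at 41.7, 40.9 and 142 against 31.6, 30.2, 41.5 and 44.6 CPM, with a log2 fold change of -0.94 that became -0.25 without fresh 3 and vitrified 4. Of its sequence words 36.0% occur in other genes, most often in Slc22a13b, so its level is uncertain. Slc2a9, a urate transporter, was at 16.0, 33.1 and 29.5 against 17.1, 17.6, 13.4 and 20.6 CPM (-0.59 ± 0.24), with fresh 1 inside the vitrified range. Slc5a2, the glucose transporter of the first segment, was at 320, 344 and 420 against 377, 336, 210 and 444 CPM, and Slc34a1, the main phosphate transporter, at 3910, 4690 and 3210 against 4240, 3550, 3510 and 3590 CPM. The third segment followed the pair that stood apart, with a summed level of 16000, 16500 and 7020 against 17300, 12000, 15700 and 4130 CPM.

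In the loop of Henle and the distal tubule, levels followed fresh 3 and vitrified 4 more than oocyte origin. Umod, which encodes uromodulin, the most abundant protein of normal urine, was at 2850, 2520 and 5070 CPM in fresh and at 3560, 3620, 3140 and 5960 CPM in vitrified kidneys. The highest library of each group was the one that lacked Y-linked transcripts. Slc12a1, the furosemide-sensitive salt transporter of the thick limb, was also highest in these libraries, at 1140, 1130 and 1970 against 1220, 1030, 1020 and 2170 CPM. Of the 10 thick limb markers 9 were highest in vitrified 4, against 34% of all tested genes. In the distal convoluted tubule 5 of 10 markers lay on each side of 0. Slc12a3, the thiazide-sensitive transporter, was at 293, 326 and 535 against 324, 291, 418 and 1010 CPM. Of the connecting tubule and principal cell markers 11 of 13 lay above 0, with a median of 0.28. Without the pair all 13 lay above 0, with a median of 0.23. The median was 0.02 without vitrified 4 alone and 0.57 without fresh 3 alone. Aqp2, the vasopressin-regulated water channel, was at 202, 62.2 and 160 CPM in fresh and at 151, 162, 153 and 318 CPM in vitrified kidneys, with overlap. Slc14a1, a urea transporter, was at 4.39, 4.29 and 10 against 10.3, 9.58, 6.47 and 19.7 CPM (0.89 ± 0.37).

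Intercalated cells, the acid- and base-secreting cells of the collecting duct, had more marker transcript in the vitrified kidneys than in fresh 1 and fresh 2, but not than in fresh 3. All 12 markers tested had a log2 fold change above 0, against 53.7% of all genes, with a median of 0.54, of 0.70 without fresh 3 and vitrified 4, and between 0.31 and 0.96 when 1 library at a time was left out. The summed level was 233, 283 and 634 CPM in fresh and 419, 462, 422 and 820 CPM in vitrified kidneys. Thus fresh 1 and fresh 2 lay below all vitrified libraries, and fresh 3 lay above all of them except vitrified 4. Slc26a4, which encodes pendrin, the chloride-bicarbonate exchanger of the base-secreting type, was at 19.8, 26.8 and 53.5 against 39.7, 52.6, 62.8 and 76.1 CPM (log2 fold change 0.85 ± 0.30). Atp6v0d2, a subunit of the proton pump, was at 16.7, 19.1 and 39.5 against 27.7, 34.7, 36.8 and 53.8 CPM (0.65 ± 0.28). Foxi1, the transcription factor that specifies these cells, was at 12.8, 11 and 28.4 against 16.9, 20, 19.0 and 43.0 CPM, and Slc4a1, the exchanger of the acid-secreting type, at 29.9, 37.2 and 80.1 against 55.2, 42.2, 35.7 and 91.0 CPM. The 2 markers with an unadjusted p under 0.05 were Slc26a4 and Atp6v0d2, against 0.977% of all genes on the higher side. The groups overlapped in each of these markers. In 11 of the 12 markers vitrified 4 was the highest library and in 8 fresh 1 was the lowest, against 34% and 15.3% of all tested genes. The zone of the kidney that each piece held was not recorded, and its part in this list was not tested.

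Glomerular and vascular markers followed fresh 3 and vitrified 4. Of 10 podocyte markers 4 lay above 0 and 6 below, with a median of -0.01. Podxl, which encodes podocalyxin, the charged coat of the podocyte foot process, was at 189, 206 and 356 CPM in fresh and at 176, 160, 175 and 526 CPM in vitrified kidneys, high in the same pair of libraries. Endothelial markers had 10 of 12 members above 0 and a median of 0.06, and without the pair 3 of 12 and a median of -0.06. In 11 of the 12 vitrified 4 was the highest library, against 34% of all tested genes. Mesangial and smooth muscle markers had a median of -0.11, which was 0.04 without the pair.

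**Figure D3:**
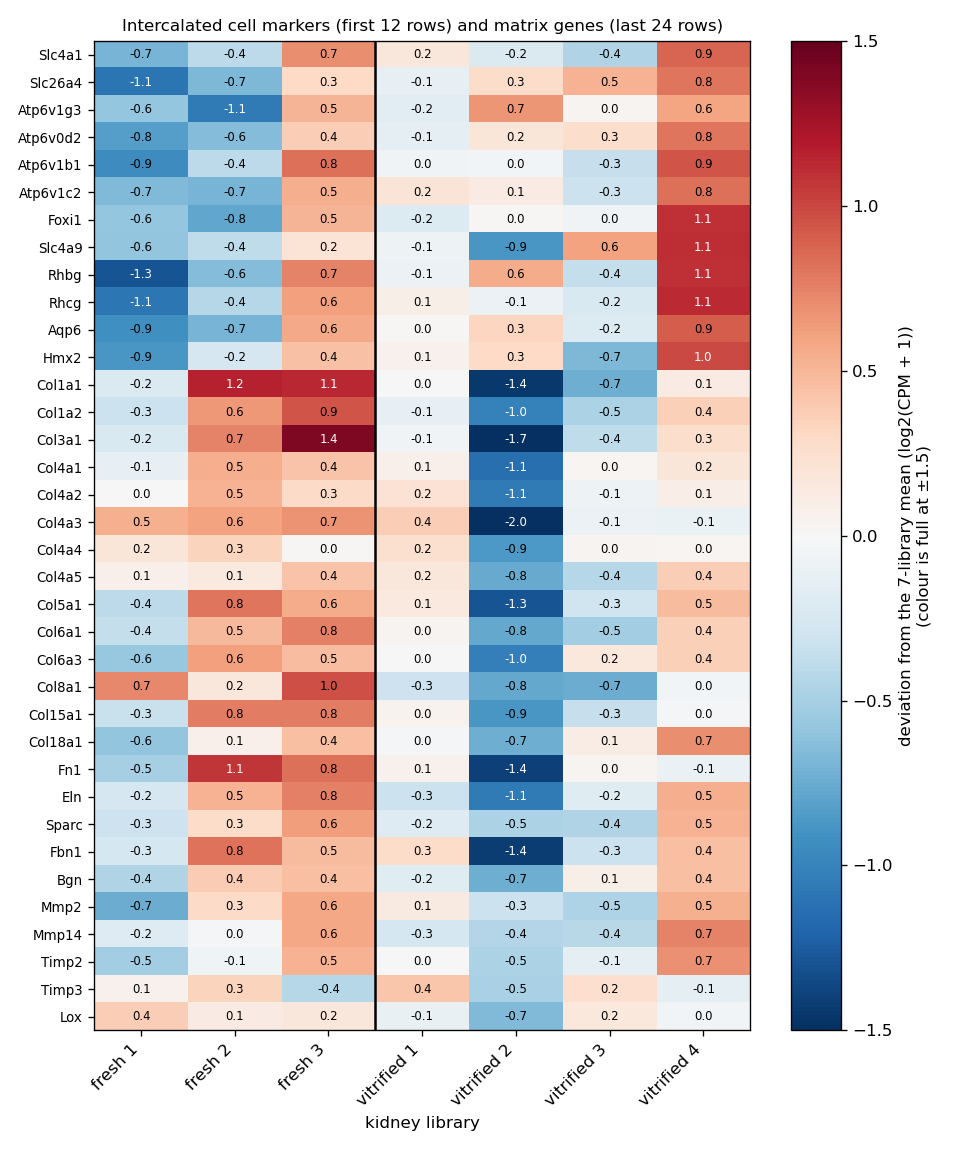
Deviation of log2(CPM + 1) from the mean over the 7 kidney libraries for 12 intercalated cell markers (first 12 rows) and 24 matrix genes (last 24 rows). Intercalated markers are low in fresh 1 and fresh 2, and nearly all matrix genes are at their lowest in vitrified 2.

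Matrix transcripts leaned the other way. Of 24 tested genes of extracellular matrix and remodelling, 3 lay above 0 and 21 below, against 46.3% of all genes below 0, with a median log2 fold change of -0.45, of -0.52 without fresh 3 and vitrified 4, and between -0.57 and -0.27 with 1 library at a time left out. Col1a1, a chain of fibrillar collagen I, was at 6.91, 19.4 and 19.1 CPM in fresh and at 8.11, 2.36, 4.52 and 8.95 CPM in vitrified kidneys. Fresh 1 lay inside the vitrified range and the other fresh libraries above it, with a log2 fold change of -1.34 ± 0.44 (SE, adjusted p = 0.999). Col3a1, collagen III, had the same order at 28.3, 56.8 and 89.6 against 32.1, 9.27, 25.4 and 40.4 CPM (-1.10 ± 0.44). Col15a1, a collagen of basement membrane zones, was at 12.8, 28.7 and 28.6 against 17.0, 8.46, 12.7 and 16.0 CPM (-0.77 ± 0.30). Col4a3, a chain of the glomerular basement membrane that is mutated in Alport syndrome, was at 463, 489 and 511 against 415, 79.8, 301 and 298 CPM, and the groups did not overlap. Fn1, fibronectin, was at 52.8, 158 and 133 against 77.9, 27.6, 76.9 and 69.6 CPM. The members with an unadjusted p under 0.05 were 5, all lower, against 1.08% of all genes on the lower side. Col8a1 and Col4a3 were the 2 without overlap, against 1.69% of all genes on that side. In 22 of the 24 genes vitrified 2 was the lowest library, while 28.8% of all tested genes were lowest there, and fresh 1 was the lowest fresh library for each collagen named here except Col8a1. Markers of interstitial fibroblasts, the main source of fibrillar collagen, had 2 of 10 members above 0 and 8 below, a median of -0.43, and a summed level of 220, 254 and 360 against 217, 133, 161 and 281 CPM. Dcn, decorin, was at 57.6, 38.2 and 44.0 against 46.8, 29.9, 35.9 and 35.4 CPM, and Pdgfra at 17.5, 22.9 and 30.4 against 20.3, 11.8, 16.4 and 28.0 CPM, with overlap in both. The part of fibroblast number in the matrix values was not tested.

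Stress transcripts were set by 1 library. Heat shock proteins are chaperones made when proteins unfold, and immediate early genes are transcription factors switched on within minutes of a stimulus, including handling of tissue. Of 16 tested heat shock genes 15 lay above 0 with a median of 0.44, and all 20 immediate early genes lay above 0 with a median of 0.62. Without vitrified 3 the medians were -0.06 and 0.12. Hspa1a and Hspa1b, the inducible chaperones of the Hsp70 family, were at 438 and 511 CPM in vitrified 3, against 7.31 to 50.8 CPM and 13.9 to 45.5 CPM in the other 6 kidneys. Hsph1, a nucleotide exchange factor for Hsp70, was at 125, 138 and 151 against 109, 114, 504 and 132 CPM, and Dnajb1, a co-chaperone, at 22.3, 24.7 and 30.1 against 26.4, 32, 156 and 31.8 CPM. Apart from vitrified 3 the groups overlapped in both genes. The heat shock factor binds inverted repeats of the letters GAA. The 250 bases before the start sites of Hspa1b (chr17:34959239-34959488) and Hspa1a (chr17:34972157-34972406) are shown because both are inducible heat shock genes and both were high in vitrified 3. They were read from RefSeq's table for GRCm38.p6 on the minus strand and are written 5′ to 3′, with the searched motif in capitals.
Hspa1b: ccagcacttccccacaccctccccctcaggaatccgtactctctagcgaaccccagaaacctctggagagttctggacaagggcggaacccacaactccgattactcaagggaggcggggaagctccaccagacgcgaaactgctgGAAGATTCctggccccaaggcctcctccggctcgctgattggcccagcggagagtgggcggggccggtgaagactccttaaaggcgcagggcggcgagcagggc
Hspa1a: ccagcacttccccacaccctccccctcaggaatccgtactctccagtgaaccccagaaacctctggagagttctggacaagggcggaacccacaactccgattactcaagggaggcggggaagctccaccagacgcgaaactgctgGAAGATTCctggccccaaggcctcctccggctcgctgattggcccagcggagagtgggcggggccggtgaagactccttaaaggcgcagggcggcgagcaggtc
Both windows hold 1 match to the motif GAANNTTC or TTCNNGAA, searched in the 250 bases before the start site. Promoters were matched for 12 heat shock genes, of which 7 (58.3%) hold a match, and for 18 immediate early genes, of which 4 (22.2%) hold one. Among all 27025 promoters 3932 (14.5%) hold it. A match describes the letters of the window and no binding was measured.

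**Figure D4:**
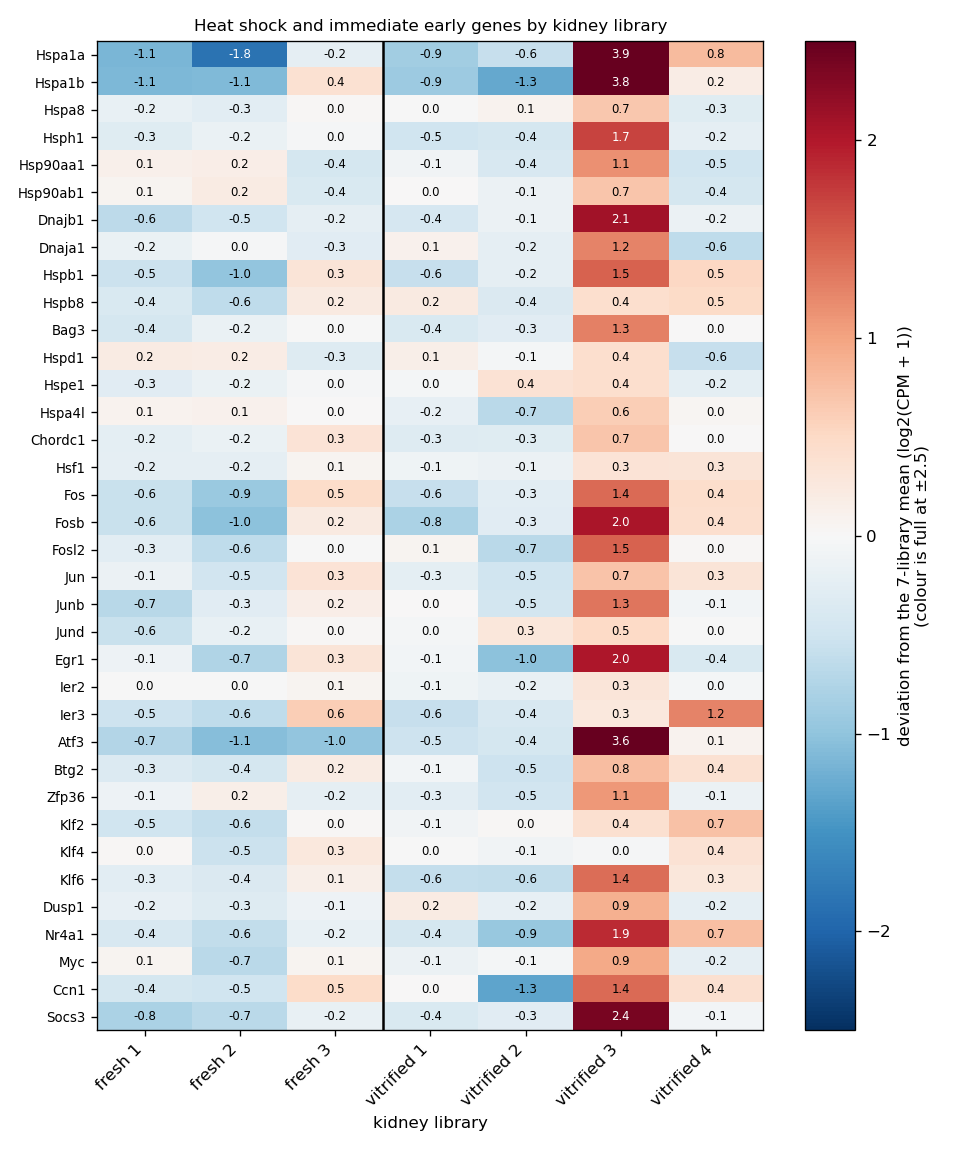
Deviation of log2(CPM + 1) from the mean over the 7 kidney libraries for 16 heat shock genes and 20 immediate early genes. Vitrified 3 is the highest library for 15 of the heat shock genes and 17 of the immediate early genes.

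Most immediate early genes followed the same library, with 17 of 20 highest in vitrified 3 and 3, Klf2 among them, highest in vitrified 4. Tsc22d3, Gadd45b and Hmox1, also given here, belong to other lists. Atf3, a stress-induced transcription factor, was at 1.41, 0.92 and 1.03 CPM in fresh and at 1.80, 1.93, 48.7 and 3.28 CPM in vitrified kidneys, and its log2 fold change of 3.72 ± 1.51 was 0.99 without vitrified 3. Its groups did not overlap even without that library. Egr1, an early growth response factor, was at 8.42, 5.15 and 11.8 against 8.87, 4.04, 41.0 and 6.91 CPM, and Fos at 2.57, 1.78 and 6.26 against 2.55, 3.42, 13.1 and 6.12 CPM. Klf2, a flow-responsive factor of endothelium, was at 5.90, 5.40 and 8.88 against 8.16, 8.83, 11.7 and 15 CPM (0.72 ± 0.25), and Tsc22d3, a glucocorticoid-induced gene, at 37.8, 28.9 and 45.7 against 42.1, 78.7, 123 and 56.4 CPM (1.07 ± 0.39). Gadd45b, a stress sensor, was at 1.51, 1.47 and 3.49 against 2.91, 3.92, 7.96 and 3.68 CPM (1.18 ± 0.48), with overlap. Hmox1, the haem-degrading enzyme, was at 14.5, 21.6 and 24.1 against 20, 14.5, 213 and 18.2 CPM. Alb, albumin, was at 1.28 CPM in vitrified 3 and at 10.5 to 306 CPM in the other kidneys. Neither the time from death to freezing nor any measure of RNA quality is given in the labels, and their part in these values was not tested.

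Markers of tubule injury lay mostly above 0, by an amount that depended on the libraries used. Of 17 tested genes of injury and repair 14 lay above 0 with a median of 0.29, which was 0.05 without vitrified 3. Without fresh 3 and vitrified 4 it was 0.56, with 16 of 17 above 0. The summed level was 562, 562 and 1730 CPM in fresh and 628, 633, 896 and 1640 CPM in vitrified kidneys. Vitrified 3 was the highest library for 7 genes, fresh 3 for 5 and vitrified 4 for 4. Havcr1, which encodes kidney injury molecule 1, was at 1.56, 3.13 and 2.94 CPM in fresh and at 2.60, 2.80, 4.78 and 1.76 CPM in vitrified kidneys, with overlap. Lcn2, the early injury protein NGAL, was at 2.57, 2.33 and 1.96 against 1.55, 2.86, 2.88 and 3.28 CPM. Lgals3, galectin 3, a lectin of macrophages and collecting duct cells, had an unadjusted p under 0.05 at 13.1, 12.6 and 28.2 against 21.0, 29.6, 31.4 and 35.6 CPM (0.76 ± 0.28), and C3, the central complement protein, at 18.4, 23.3 and 40.4 against 16.3, 15.3, 6.78 and 19.7 CPM (-0.89 ± 0.32). Scaling by albumin gave up to 28.4 CPM of C3 in a kidney library, so liver and kidney transcripts of C3 cannot be told apart.

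Interferon-induced and antigen-presentation genes were set by vitrified 4. Of 25 tested interferon genes 21 lay above 0 with a median of 0.34, which was -0.44 without vitrified 4 and -0.07 without it and fresh 3. Ifit1, which binds foreign RNA and is induced by type I interferon, was at 6.15, 10.6 and 10.9 CPM in fresh and at 5.76, 7.09, 6.78 and 39.6 CPM in vitrified kidneys. Its 3 other vitrified libraries lay within or below the fresh range. Of the 25 genes 24 were highest in vitrified 4, against 34% of all tested genes. In the antigen-presentation list 14 of 16 members lay above 0 with a median of 0.51, which was -0.14 without vitrified 4. B2m, the light chain of class I molecules, was at 196, 304 and 345 against 184, 220, 210 and 869 CPM. Class II genes were also high in vitrified 2. H2-Aa was at 32.7, 15.1 and 25.7 against 33.7, 54.9, 33.4 and 140 CPM (1.36 ± 0.50), without overlap by a narrow margin. H2-Eb1 was at 16.1, 15.3 and 25.2 against 20.3, 47.3, 28.3 and 79.7 CPM (1.21 ± 0.39). Cd74, the class II invariant chain, was at 75.2, 71.2 and 102 against 76.5, 138, 109 and 350 CPM (0.99 ± 0.42). Without fresh 3 and vitrified 4 the log2 fold changes were 0.77 for H2-Aa, 1.04 for H2-Eb1 and 0.58 for Cd74. Macrophage and dendritic cell markers, whose cells carry class II, had a summed level of 216, 186 and 265 against 221, 277, 261 and 569 CPM, again highest in vitrified 4, and their part in these values was not tested. Among class I genes that share sequence and are uncertain, H2-Q7 was at 8.26, 18.7 and 46.6 against 10.2, 2.89, 6.18 and 0.86 CPM and H2-T10 at 0.661, 0.307 and 0.606 against 2.04, 1.54, 0.725 and 3.25 CPM.

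Plasma cell transcripts varied widely in both groups. Ighg2b, an immunoglobulin heavy chain, was at 1.87, 3.67 and 0.795 CPM in fresh and at 7.71, 15.1, 6.11 and 7.48 CPM in vitrified kidneys, without overlap (2.10 ± 0.57). Igkc, the kappa light chain, overlapped at 26.9, 137 and 8.39 against 213, 232, 146 and 26.3 CPM, and Jchain, the joining chain of secreted IgA and IgM, at 19.2, 88.0 and 6.43 against 221, 148, 95.2 and 14.0 CPM. Both were lowest in the library of each group that lacked Y-linked transcripts. Among 12 tested markers of T, B and plasma cells 8 lay above 0, with a median of 0.33, which was -0.07 without fresh 3 and vitrified 4, where 4 of 9 tested markers lay above 0. S100a9, a calcium-binding protein of neutrophils, was at 0.555, 0.368 and 0.163 against 0.801, 5.16, 4.42 and 0.793 CPM (2.98 ± 0.92), without overlap.

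**Figure D5:**
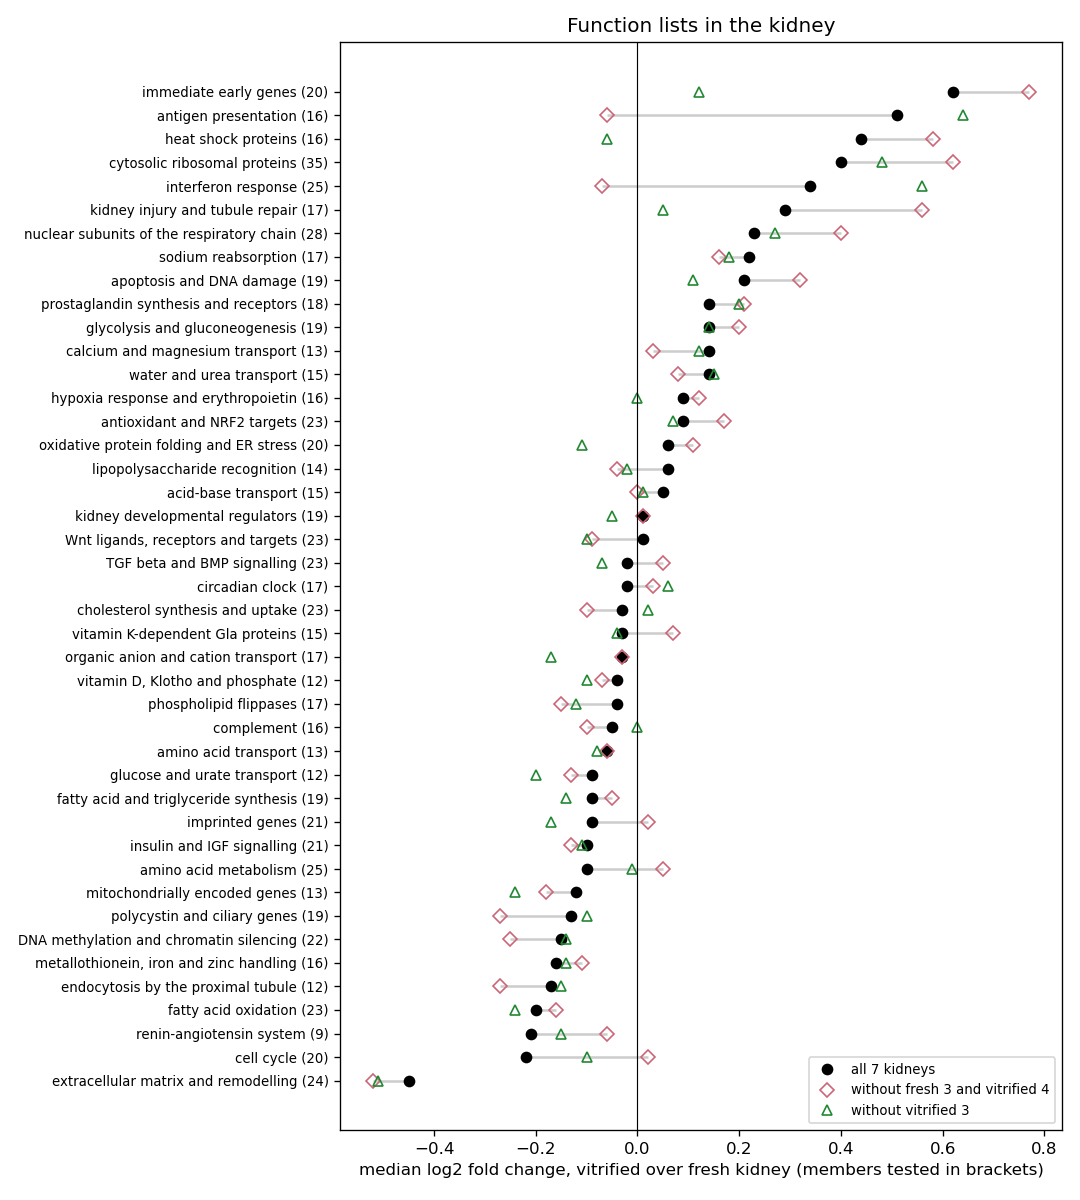
Median log2 fold change, vitrified over fresh, of the tested genes in each function list, with all 7 kidneys, without fresh 3 and vitrified 4, and without vitrified 3. The ribosomal and matrix lists keep their side of 0 in all 3 sets of libraries, and the heat shock, interferon and antigen-presentation lists do not. None of the sets leaves out vitrified 2, without which the ribosomal and matrix medians are 0.09 and -0.27 (not drawn).

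Protein synthesis and respiration lists lay above 0, to a large part through vitrified 2. All 35 cytosolic ribosomal protein genes lay above 0, with a median of 0.40, of 0.62 without fresh 3 and vitrified 4, and of 0.09 to 0.56 with 1 library at a time left out, the lowest without vitrified 2. Their summed level was 5440, 5390 and 7910 CPM in fresh and 6650, 11500, 5990 and 7610 CPM in vitrified kidneys. Vitrified 2 was the highest library for all 35, and fresh 3 lay above 3 of the 4 vitrified libraries. Nuclear genes for the respiratory chain had 26 of 28 members above 0 with a median of 0.23, and 23 of them were highest in vitrified 2. Without vitrified 2 the median was 0.03 with 18 of 28 above 0, and without fresh 3 and vitrified 4 it was 0.40. None of either list had an unadjusted p under 0.05. The 13 mitochondrially encoded genes of the same chain had 6 members above 0, 7 below and a median of -0.12. Among them mt-Atp8, a subunit of the ATP synthase, was at 986, 787 and 771 CPM in fresh and at 509, 478, 663 and 645 CPM in vitrified kidneys, without overlap (-0.56 ± 0.24). Its reading frame overlaps that of mt-Atp6, so the split of reads between them is uncertain. Most matrix genes were at their lowest and all ribosomal genes at their highest in the same library, vitrified 2, and the part of RNA quality in either was not tested.

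Fatty acid oxidation had most of its members below 0. Of 23 tested genes 4 lay above 0 and 19 below, with a median of -0.20, and without fresh 3 and vitrified 4 the median was -0.16 with 10 of 23 above 0. With 1 library at a time left out it ranged from -0.37 to -0.09. Acadm, the medium-chain dehydrogenase of mitochondria, was at 1530, 1530 and 1580 CPM in fresh and at 1140, 1140, 1190 and 663 CPM in vitrified kidneys. The fresh libraries were nearly equal and the vitrified libraries all lay below them. Ehhadh, the peroxisomal bifunctional enzyme, was at 1090, 761 and 745 against 741, 705, 632 and 313 CPM, without overlap by a narrow margin. Acadm and Ehhadh were the 2 of 23 members without overlap, against 1.69% of all genes on the lower side. No member of the list had an unadjusted p under 0.05. Glycolysis and gluconeogenesis had 15 of 19 members above 0 with a median of 0.14, and fatty acid synthesis 8 of 19 with a median of -0.09. Gpx3, the plasma glutathione peroxidase that the proximal tubule secretes, was at 9480, 12600 and 12200 against 12300, 21800, 9590 and 17200 CPM, with overlap.

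In the complement list 6 of 16 tested genes lay above 0, with a median of -0.05. C2, a protease of the classical pathway, was at 17.8, 31.2 and 63.5 CPM in fresh and at 17.9, 15.1, 15.6 and 8.44 CPM in vitrified kidneys (-1.30, and -0.59 without fresh 3 and vitrified 4), and it is uncertain because it shares sequence with Gm20547. Genes known to differ between male and female mouse kidney followed fresh 3 and vitrified 4. All 8 tested female-biased genes lay below 0 with a median of -1.38. That median was 1.52 without fresh 3, -3.26 without vitrified 4 and -0.48 without both, where 1 of 8 lay above 0. The 13 male-biased genes had a median of 0.02. Rnf24, a ring finger protein of the female-biased list, was at 332, 290 and 155 against 173, 59.0, 149 and 59.4 CPM, which is not the order of Slc7a12.

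Wnt, TGF beta and developmental lists gave medians near 0, whereas the renin-angiotensin list lay lower. In the renin-angiotensin list 2 of 9 tested genes lay above 0 and 7 below, with a median of -0.21, which was -0.06 without fresh 3 and vitrified 4. Ren1, the renin gene of the juxtaglomerular cells, was at 37.1, 108 and 108 CPM in fresh and at 39.9, 48.3, 35.1 and 104 CPM in vitrified kidneys, with both groups spread over the same range. Kl, the Klotho co-receptor for FGF23, was at 668, 892 and 673 against 816, 543, 679 and 797 CPM. Of the Wnt list 12 of 23 members lay above 0, with a median of 0.01. On each side of 0, 2 members had an unadjusted p under 0.05, against 0.977% of all genes higher and 1.08% lower. Beside Wnt4, the higher one was Dkk3, a secreted Dickkopf relative, at 11.4, 10.2 and 12.5 against 11.5, 13.3, 17.7 and 22.6 CPM, with overlap. Fzd1, a Wnt receptor, was at 45.5, 44.4 and 71.2 against 39.0, 38.1, 28.3 and 40.4 CPM (-0.53 ± 0.17), without overlap, and Wnt5a, a ligand of the planar polarity branch, at 11.2, 10.7 and 16.9 against 6.86, 6.10, 7.09 and 13.3 CPM (-0.64 ± 0.25). TGF beta and BMP genes had a median of -0.02 and kidney developmental regulators one of 0.01.

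Lists that bear on the memory of early development were examined because vitrification acts on the egg. Of 22 tested genes for DNA methylation and chromatin silencing 5 lay above 0 and 17 below, with a median of -0.15, and of -0.25 without fresh 3 and vitrified 4. In 10 of the 22 genes vitrified 2 was the lowest library, against 28.8% of all tested genes. Without vitrified 2 the median was -0.05 with 8 of 22 above 0. No member had an unadjusted p under 0.05. Imprinted genes had 8 of 21 members above 0 and a median of -0.09, and insulin and IGF signalling 9 of 21 and a median of -0.10. Polycystin and ciliary genes, which keep tubule width, had 4 of 19 members above 0 and a median of -0.13. Pkd1 was at 33.3, 34.5 and 38.9 CPM in fresh and at 30.3, 15.5, 27.6 and 55.8 CPM in vitrified kidneys, with overlap. Cell cycle genes had 5 of 20 members above 0 and a median of -0.22, which was 0.28 without fresh 3.

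The kidney values were set beside those of the liver in a model over all 13 libraries, in which the difference between the organs was the interaction term. Whether equal numbers mark the same mouse is not stated, so values of the organs may not be independent. No gene passed, 0 of 14441 tested (0%), and 275 (1.90%) had an unadjusted p under 0.05. Lbp, Prxl2b and Ero1lb had fold changes of the same sign in both organs, at -2.37, -2.12 and -1.41 in kidney and at -1.29 ± 0.30, -1.08 ± 0.23 and -1.28 ± 0.27 in liver (log2, SE). Other ranked genes went both ways in liver. Ect2 (-1.78 ± 0.82) and Srp9 (0.75 ± 0.27) were among those that shared the sign of the kidney. Col8a1 (0.08 ± 0.54), Reln (0.31 ± 0.41) and Wnt4 (-0.50 ± 0.56) were among those that did not, and Acmsd was near 0 (-0.02 ± 0.33). Gm9008 was higher in both organs, in liver at 0, 0 and 0 CPM in fresh and 0.812, 0.678 and 0.885 CPM in vitrified animals. Afap1l2, an adaptor of Src signalling, and Plcl1, a phospholipase C-like protein, had some of the smallest p-values for the difference. Afap1l2 was at 20.3, 16.9 and 28.8 against 38.3, 23, 20.3 and 28.1 CPM in kidney (0.34 ± 0.23), with -2.19 ± 0.52 in liver, and Plcl1 at 22.7, 21.1 and 29.0 against 23.3, 21.2, 16.1 and 41.5 CPM (0.06 ± 0.24), with -2.78 ± 0.64 in liver. In both genes the kidney groups overlapped and the size of the difference came from the liver. Adh4, an alcohol dehydrogenase, and Col6a5, a collagen VI chain, were the other such genes and stayed under 1 CPM in every kidney.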

How the data were processed

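Total RNA of mouse kidney and liver was sequenced as 13 libraries, and the 7 kidneys were analysed here with groups taken from the tissue and treatment labels. The authors deposited estimated counts and FPKM values per gene. Tools named in the submitters' processing notes are HISAT2 2.4, Bowtie2 2.2.8, DESeq2 and StringTie 1.3.1, with build GRCm39. Neither their settings nor the use of strand are given in these sources. Count models used rounded values, since 8.58% to 9.14% of a kidney library's estimated counts had a fraction. Estimated counts can split reads between near-identical genes. Kidney totals were 16073251 to 19964914. Every pair of kidneys within a group differed by more than sampling noise (chi-square of 21.0 or more per gene).

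Kidneys were fitted with edgeR 4.0.16 in R 4.3.3 (TMM, the default filter on low counts, robust quasi-likelihood test, no covariate), with Benjamini-Hochberg adjustment over all 14018 genes, and the organ difference was the interaction in a model of 13 libraries. Levels are CPM from the unrounded estimated counts and library totals. The steps were tested on simulated data.

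The members, the 66 gene lists and the tests were chosen with earlier results of these data known. The naming rule took up to 12 genes a direction by smallest p with a group mean of at least 1 CPM, up to 3 members of each list by smallest p if it was under 0.05, up to 3 members of each list by highest FPKM (given as levels without a test), and 4 genes of the organ difference. A few further list members are given as levels to complete a pathway, and were chosen after their values were seen. Shared sequence is the share of a gene's sequence words found in another gene of GENCODE mouse release M21, in which 22255 of the 22298 identifiers were found. Promoters came from RefSeq (GRCm38.p6). Alternatives were DESeq2 1.42.0, its size factors, library totals, other filters, limma 3.58.1 with voom or log2(FPKM + 1), the newer quasi-likelihood method, a replicate block, a Y-linked covariate, and libraries left out. Some genes, among them Xist and H19, are not reported here.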

Additional observations from a re-analysis of the deposited data

Results flagged for a closer look

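In 6 of the 58 genes named by p, 1 of the 4 vitrified kidneys lay far from the other 3 by Dixon's test on CPM. The test flags about 1 in 20 groups by chance, so some of these flags may be due to chance. Atf3 was at 48.7 CPM in vitrified 3 and at 1.80 to 3.28 CPM in the others. Wnt5a was at 13.3 CPM in vitrified 4, inside the fresh range, and at 6.10 to 7.09 CPM in the others. Ero1lb was at 17.5 CPM in vitrified 1 and at 7.71 to 8.83 CPM in the others, all below the fresh kidneys. Trim80 was at 0.373 CPM in vitrified 2 and at 0.15 to 0.17 CPM in the others. Pfn3 was at 0.00793 CPM in vitrified 4 and Col6a5 at 0.0622 CPM in vitrified 2, with 0 in the other vitrified kidneys of each gene, values that stand for a few reads at most. A lone value above 0 is always flagged, whatever its size.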

How the results depend on the processing

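The count of 0 kidney genes became 11 with DESeq2 (4 higher and 7 lower, among them Lbp, Prxl2b, Pfn3, Gm9008, Bglap3, Atp9a, Col8a1, Ero1lb and Ifi44l), 3 with limma-voom (Gm9008, Bglap3 and Pfn3), and 2 each, Gm9008 and Bglap3, with no filter on low counts, with the newer quasi-likelihood method and with Y-linked transcript as covariate; the cause was not tested. With 1 library left out at a time it ranged from 0 to 3, the 3 being Tpm3-rs7, AK157302 and Lbp without fresh 1. It stayed at 0 with DESeq2's size factors, library totals, the stricter filter, log2(FPKM + 1) and without fresh 3 and vitrified 4, and the organ difference gave 0 under every alternative run. Plcl1 turned from 0.06 to -0.18 with the replicate block, to -0.12 without fresh 3 and vitrified 4, and ranged from -0.17 to 0.19 with 1 library left out. Of the other comparisons of a named gene with an alternative, 20, in 10 genes, passed the test where the main fit did not, and 981 kept their side. Of the list medians 15, in 9 lists, moved beyond the spread within groups and 1173 did not. Deviations from the group means correlated at 0.619, 0.034 and -0.575 for equal replicate numbers 1, 2 and 3, and fresh 3 correlated best with vitrified 4 (0.805). Since fresh 3 and vitrified 4 stood apart in their groups, these correlations cannot decide whether equal numbers mark paired samples. The replicate block gave 0 calls and 507 genes at an unadjusted p under 0.05, against 288. With 3 and 4 libraries, 1 of each group apart from the rest, differences near the median SE of 0.26 were not detectable.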
